A study of Homo sapiens with 2 samples.

Results

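The genes described here are the 52 gene names whose every measured oligonucleotide probe, at least 2 of them, gave a lower signal in siRNA-treated than in siRNA-untreated Y79 cells, by a log2 ratio of -0.5 or less. They were chosen from 2917 gene names with 2 or more measured probes, out of 19098 names with any measured probe. The choice used the ratios themselves, so the ratios of the 109 probes involved are a description of the genes and not evidence about them. Of the 52 names, 48 rested on 2 probes, 3 on 3 probes and 1 on 4 probes.

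RNA was taken from Y79 cells, an established human retinoblastoma line, without siRNA or 48 h after siRNA against Ep-CAM, and each was hybridised to 1 single-colour whole-genome array. The control was untreated, not given a control siRNA, so an effect of Ep-CAM loss and an effect of the transfection cannot be told apart. According to the study's methods, cells of both groups had also been exposed to the demethylating agent AZC, which the sample labels do not list. There was 1 array per group, so no difference has a replicate check, no test between the groups was possible, and no p-value is given. The arrays shared a slide and a scan.

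Ep-CAM is a membrane glycoprotein of epithelia and of many carcinomas that holds neighbouring cells together and can signal through its short intracellular part. Silencing with siRNA works by cutting the matching mRNA, and genes further away can follow through changes in transcription or mRNA stability. A 60-base array probe reads only the stretch of transcript that it matches, so several probes placed along a transcript are separate readings of the same RNA, and their agreement is one way to tell a transcript level from the behaviour of a single probe.

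The signal of a spot is given in the scanner's arbitrary units, and for the log2 ratio each array was divided by its median over transcript spots, which was 48.9 without and 50.1 with siRNA. A probe was measured where it was well above background and unsaturated on both arrays, and 22599 probes outside the lower right corner of the array were. The corner was left out because ratios there were more spread, with a standard deviation of 0.51 over 4524 probes against 0.29 elsewhere. Among probes printed repeatedly, the median standard deviation of the log2 ratio over the spots of a probe was 0.118 (193 probes), which covers technical spread within an array only. The probe for Ep-CAM itself, listed as TACSTD1, did not stand well above background (15.6 without and 12 with siRNA), so these arrays do not check the silencing. GAPDH had a log2 ratio of 0.02 over 9 spots outside the corner, and the measured ACTB probes had 0.03, -0.22 and -0.32. Of 13 retinoblastoma and cone precursor genes looked up, 6 were measured, all at low signals (31.3 to 259 on the untreated array), while RCV1 (recoverin), PDE6H, NRL, RXRG and KIF14 were below that limit on both arrays. None of their 7 measured probes reached -0.5, but their median log2 ratio was -0.37, with the MYCN probes at -0.47 and 0.30. Of the markers of glia, pigment epithelium, blood and endothelium none reached -0.5 either, with medians of 0.14, 0.08, 0.02 and -0.05. Among epithelial probes 1 of 6 did (median -0.21) and among fibroblast probes 2 of 6 (median -0.05). In the other direction the blood marker HBB (haemoglobin beta) went from 324 to 1219 (1.87) and a MITF probe in the corner from 43.3 to 83.7 (0.92). The part of these markers in the results below was not tested. The HBA1 (haemoglobin alpha) spot, flagged by the scanner software, read 63960 and 64454.

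Of all measured probes, 5.62% were at -0.5 or less, and of names with 2 or more measured probes 1.78% were so at every probe. At least 1 probe was that low for 382 names (13.1%), so for 330 names the probes did not agree, and 138 of these had another probe above 0. Only 3 names had every probe at 0.5 or more, namely ENC1 (mean log2 ratio 0.56), SYTL1 (0.80) and MAFG (0.88). Asking only for a mean of -0.5 or less would have taken 137 names (4.7%). The mean log2 ratio of the 52 genes ran from -1.19 to -0.53 with a median of -0.70, while the median over all 2917 names was -0.03. Single probes of the 52 genes ran from -1.54 to -0.51, and 12 of the 109 were at -1 or less. All 109 had been chosen for lying at -0.5 or less. Of the 1270 measured probes that low, 144 were at -1 or less, which is 0.637% of all measured probes. Below 0 were 55.3% of all measured probes.

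**Figure D1:**
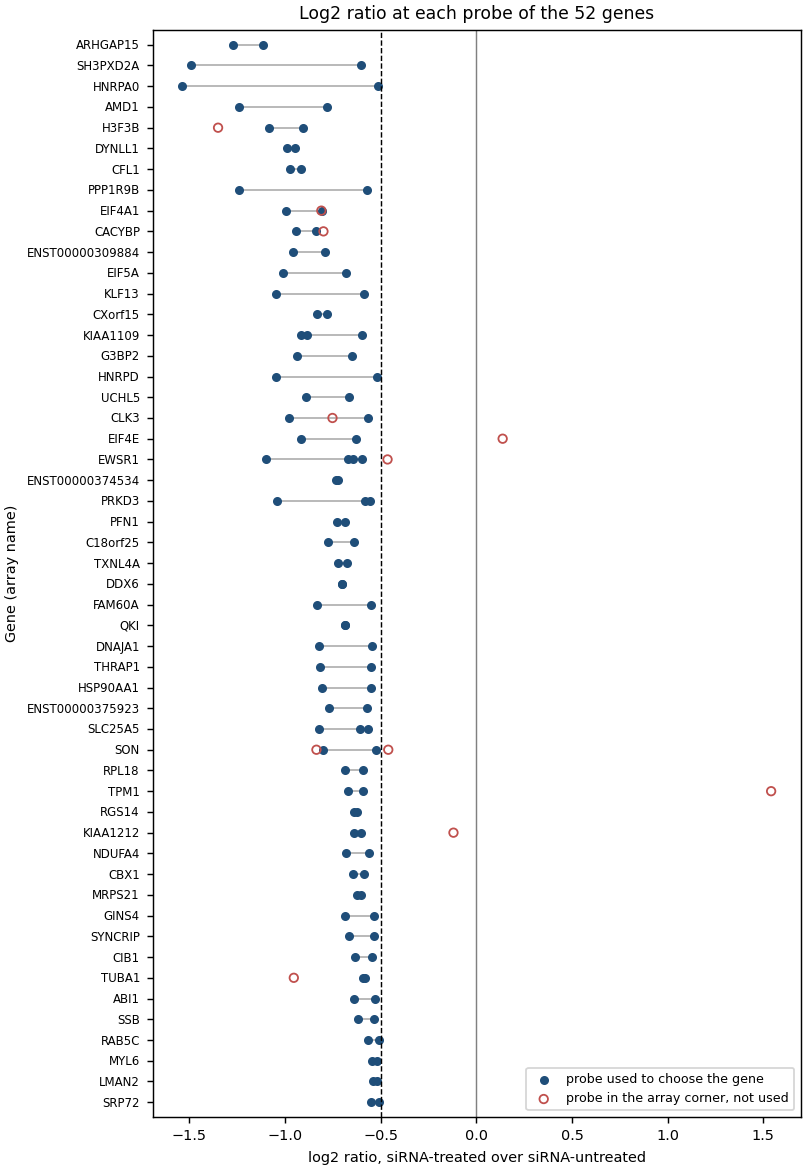
Log2 ratio (siRNA-treated over siRNA-untreated, horizontal axis) of each probe of the 52 genes, ordered by their mean (vertical axis). Filled points are the 109 probes that chose the genes, open circles 11 probes in the array corner that did not take part, the dashed line is -0.5. The filled points lie between -1.54 and -0.51, while the open circles run from -1.35 for H3F3B to 1.54 for TPM1.

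ARHGAP15, which encodes a GTPase-activating protein for the small GTPase Rac, had the lowest mean of the 52 and was the single name with every probe at -1 or less (0.0343% of names). Its mean was not the lowest under every processing, being -0.72 with the values of the series table, where EIF4A1 had -0.97, and -0.77 with the normexp background correction, where H3F3B had -1.61. The ARHGAP15 signal went from 117 to 49.9 at one probe and from 129 to 60.9 at the other, log2 ratios of -1.27 and -1.11. On hg17, the build of the array design, these probes were placed at chr2:144110639-144147741 and chr2:143746932-143793469 on the plus strand, each range being wider than a probe. They are shown because they share no stretch of sequence and so read separate parts of the transcript.
First ARHGAP15 probe: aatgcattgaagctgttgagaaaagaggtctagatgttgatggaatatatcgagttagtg
Second ARHGAP15 probe: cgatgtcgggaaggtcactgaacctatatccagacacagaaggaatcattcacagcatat

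Not every pair of probes was as separate. In 7 of the 52 genes (13.5%) a pair of probes shared a run of 20 or more bases, against 150 of all 2917 names (5.14%). For EWSR1 and SLC25A5 other, separate probes remained, which left 5 genes, CACYBP, ENST00000309884, PFN1, CBX1 and MRPS21, whose probes read a single stretch, and 47 genes with at least 2 separate probes. The probes of MRPS21 and CACYBP are shown as examples of readings that were not independent, with the shared run in capitals. The oligonucleotides of MRPS21, a protein of the mitochondrial ribosome, were identical over all 60 bases (chr1:147093657-147093716 on hg17, plus strand). Their signals, 2035 to 1353 and 2035 to 1371, are therefore the same reading made at separate spots. Those of CACYBP shared 40 bases (chr1:171710792-171710851 and chr1:171710772-171710831, plus strand).
MRPS21, both probes: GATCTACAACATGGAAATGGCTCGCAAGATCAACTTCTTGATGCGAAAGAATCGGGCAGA
First CACYBP probe: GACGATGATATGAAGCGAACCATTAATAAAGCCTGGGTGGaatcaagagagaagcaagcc
Second CACYBP probe: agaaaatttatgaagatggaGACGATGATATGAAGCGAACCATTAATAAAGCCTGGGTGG

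Probes can also match transcripts of related genes. For 3 of the 52 names a probe of another name shared 24 or more bases. Of 8 such probes measured, 6 were at -0.5 or less (median -0.72), against 5.62% of all measured probes, a comparison not matched for brightness. Most of the 8 matched the same probe of ENST00000309884 at overlapping runs of bases, so they were not independent readings. A CBX1 probe (chr17:43508372-43508431 on hg17, minus strand) shared 49 bases with a probe listed as ENST00000333392, whose signal went from 503 to 314 (log2 ratio -0.72). Signals of such probes cannot be assigned to a single gene. Many of the other genes have processed copies or close relatives in the genome, among them H3F3B, CFL1, EIF5A, RPL18, SLC25A5 and TUBA1, and their signals may include those of relatives.
CBX1 probe, shared run in capitals: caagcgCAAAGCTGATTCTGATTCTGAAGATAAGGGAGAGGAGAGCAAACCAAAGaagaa
ENST00000333392 probe, shared run in capitals: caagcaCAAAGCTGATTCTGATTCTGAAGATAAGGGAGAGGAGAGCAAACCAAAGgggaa

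Probes of the same genes that took no part in the choice give further readings on the same arrays, though of the same RNA. Whether they overlap in sequence with the probes that chose the gene was not checked. There were 32 of them over 19 genes, and 15 were dim on both arrays. In the corner of the array 11 were measured. Of these, 6 were at -0.5 or less and 9 below 0, with a median of -0.75, against 12.9% at -0.5 or less, 55.8% below 0 and a median of -0.04 over all 4524 named corner probes. The comparison was not matched for brightness, and bright probes fell more often over the whole array, as given below. Among the 11, the CLK3 probe read 27253 without siRNA and the EIF4E probe 37.9. H3F3B had 826 to 332 there (-1.35), TUBA1 15716 to 8315 (-0.95) and SON 1031 to 592 at one probe (-0.84) and 615 to 458 at another (-0.46). EIF4A1 had -0.81, CACYBP -0.80, CLK3 -0.75 and EWSR1 -0.46. On the other side KIAA1212 had -0.12, EIF4E 0.14 and TPM1 1.54, from 56.4 to 168. The TPM1 probe was listed under another transcript of the gene than the probes that fell, and with corner probes kept the mean of TPM1 turned positive (0.092). The corner probes that fell lay among spots whose median log2 ratio was between -0.32 and 0.14. Probes saturated in at least 1 array had -0.52 for SLC25A5 and 0.08 for TUBA1, where a ratio is only a bound or unknown. A further HSP90AA1 probe was dim on the siRNA-treated array only and gives no fold.

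**Figure D2:**
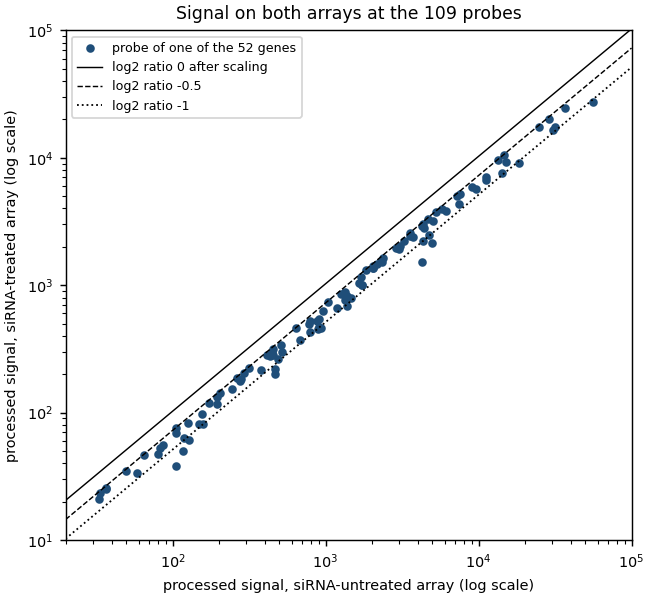
Processed signal on the siRNA-untreated (horizontal) and siRNA-treated (vertical) array at the 109 probes of the 52 genes, both on log scales in arbitrary units. The solid line marks a scaled log2 ratio of 0, the dashed line -0.5 and the dotted line -1. The probes reach from 32.9 to 56012 on the untreated array, and 12 of them lie at -1 or less.

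The genes are described by list or known role, beginning with proteins that bind mRNA, and each list's count is to be read against the 1.78% of all names and the 10.4% of bright names given below. Genes placed by role were so placed after their values were seen. Of 36 genes on a list of splicing factors and heterogeneous nuclear ribonucleoproteins (hnRNPs) with 2 or more measured probes, 6 were among the 52 genes (16.7%), the median mean log2 ratio of the 36 was -0.28, and 31 of them were below 0. HNRPA0, an hnRNP that binds AU-rich mRNA, had the largest gap between its probes of any in the list that fell throughout, with 4286 to 1512 (-1.54) at one and 64.6 to 46.4 (-0.51) at the other. HNRPD, which speeds the decay of AU-rich mRNA, had 1388 to 688 (-1.05) and 13409 to 9580 (-0.52). CLK3, a kinase of splicing factors, had 158 to 81.8 (-0.98) and 7209 to 4988 (-0.57). The HNRPA0 and HNRPD genes thus entered the group through a probe just under the threshold. EWSR1, an RNA-binding protein known from its fusions in Ewing sarcoma, was the gene with most probes, at -1.10, -0.67, -0.65 and -0.60. QKI, which governs splicing and stability of glial mRNAs, had -0.69 at both probes, and SYNCRIP, an hnRNP of mRNA transport, had -0.66 and -0.54. In the rest of the list U2AF1, a splice site factor, had a mean of -0.69 with 1 of its 3 probes at -0.34, and HNRPU had probes from -1.04 to -0.10. SNRPB2 had the highest mean of the list at 0.26, with probes at 0.01 and 0.52.

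DDX6, a helicase of mRNA decay, had -0.70 at both probes, where the signals were 245 to 154 and 451 to 284. With EIF4A1 it was 1 of 2 genes among 7 RNA helicases with 2 or more measured probes (28.6%). DDX3X of the same list had a similar mean, -0.74, but its 4 probes ran from -1.21 to -0.10, so it was not counted. Other RNA-binding proteins among the 52 were in no list used here and are grouped by role after their values were seen. They were G3BP2 of stress granules (mean -0.79), TXNL4A of the U5 small nuclear ribonucleoprotein (-0.70), the nuclear speckle protein SON (-0.66) and SSB, the La protein that binds the ends of small RNAs (-0.58).

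Of 16 names in a list of translation factors, which by its prefix also took in the Argonaute EIF2C1, 3 were among the 52 (18.8%), the median was -0.35, and 15 were below 0. This count was 0 with quantile normalization, 1 with a lowess curve of the ratio on signal subtracted and 7 with normexp, while that of the splicing list was 3, 2 and 9. EIF4A1, the RNA helicase that unwinds the start of mRNAs for ribosome loading, had 4353 to 2242 (-0.99) and 7436 to 4359 (-0.81). EIF4E, which binds the mRNA cap, had 490 to 266 (-0.92) and 2321 to 1540 (-0.63). EIF5A, which helps ribosomes past difficult peptide bonds and carries hypusine, had 896 to 456 (-1.01) and 4382 to 2801 (-0.68). Some factors outside the group were below 0 at every probe, as EIF4A2 with -0.71 to -0.19, EIF3S6IP with -0.66 and -0.40 and EIF4E3 with -1.04 and -0.22. EIF2S1 was mixed, with -1.03 and 0.07, and EEF1G was near 0, with a mean of 0.08. AMD1, the enzyme that commits S-adenosylmethionine to the synthesis of spermidine, had 4968 to 2152 (-1.24) and 874 to 522 (-0.78). It belonged to another list, growth factor and PI3K signalling, as 1 of 20 genes (5%), and was placed here with its values known. OAZ1, SAT and SMS of that list, which act in the same metabolism, did not meet the rule, with means of -0.04, -0.14 and -0.56.

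A list of cytosolic ribosomal proteins held 43 names, which by their prefix included the kinase RPS6KA3 and the pseudogene RPL23AP13. Of these only RPL18 was among the 52 (2.33%), with 3009 to 1919 (-0.68) and 418 to 283 (-0.59). Their median was -0.17, with 39 of 43 below 0, and 5.49% of their probes were at -0.5 or less, near the 5.62% of all probes. The names of this list were bright, with a median untreated signal of 5816 over genes. No test of the difference between lists was made.

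A list of actin, tropomyosin and adhesion genes, which also held actins, the cadherin CDH4 and the integrin ITGB1, gave 4 of 30 genes (13.3%), with a median of -0.17. The count was 2 with quantile normalization and with the lowess subtraction, and 9 with normexp. CFL1 (cofilin), which severs actin filaments, had 4723 to 2463 (-0.97) and 791 to 430 (-0.92). PFN1 (profilin), which feeds actin to growing filaments, had -0.73 and -0.69 at its overlapping probes. TPM1, a tropomyosin that coats filaments, had 277 to 178 (-0.67) and 444 to 301 (-0.59), and MYL6, a light chain of nonmuscle myosin, had -0.55 and -0.52. The actin genes ACTG1 and ACTB did not meet the rule, with means of -0.38 and -0.17. Actin-like transcripts under other names, such as Ensembl names, were not looked up. CFL2, a cofilin of muscle, had -0.09 at both probes. TLN2 (talin) had the lowest mean of the list, -1.43, but its probes gave -2.64 and -0.21. Actin regulators in no list used here, grouped by role after their values were seen, were SH3PXD2A, KIAA1212 or girdin (mean -0.62) and ABI1 of the WAVE complex (-0.59). SH3PXD2A, a scaffold of podosomes, had 106 to 38.5 (-1.49) and 1716 to 1160 (-0.60). Unlisted actin regulators that did not fall were not counted. PPP1R9B or spinophilin, an actin-binding partner of protein phosphatase 1, had 466 to 202 (-1.24) and 5772 to 3980 (-0.57). It came from the list of protein phosphatases, where it was 1 of 23 genes (4.35%) and the median was -0.14.

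Of 17 tubulin and microtubule genes 2 were among the 52 (11.8%), with a median of -0.01 for the list. DYNLL1, a light chain of the motor dynein, had 904 to 466 (-0.99) and 30789 to 16378 (-0.95). TUBA1, whose accession now belongs to TUBA4A, had 4252 to 2896 (-0.59) and 3561 to 2438 (-0.58). TUBB3 had a mean of 0.44, with probes at 0.02 and 0.86.

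**Figure D3:**
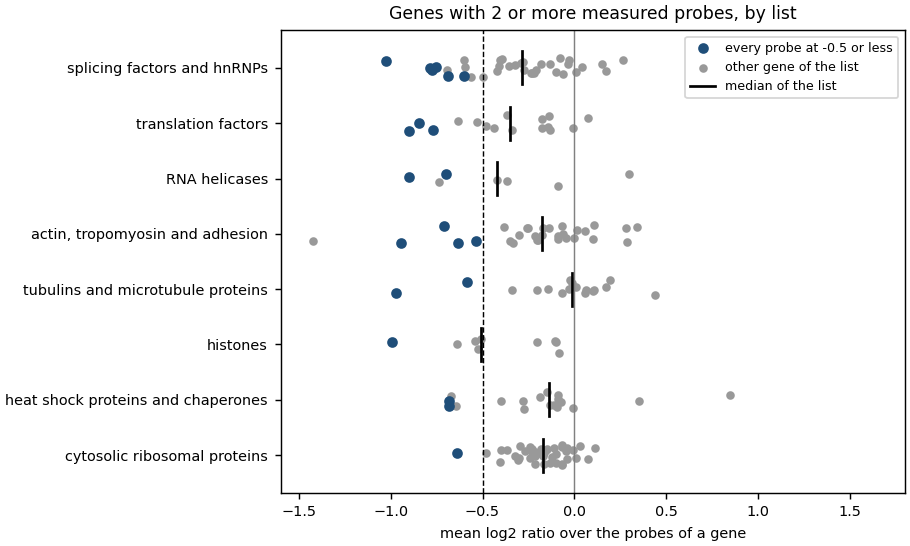
Mean log2 ratio over the probes of each gene (horizontal axis) for genes with 2 or more measured probes in 8 gene lists (rows). Large points are genes with every probe at -0.5 or less, small points the other genes of the list, bars the list median and the dashed line -0.5. The medians run from -0.51 for histones to -0.01 for tubulins and microtubule proteins.

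Among genes of chromatin and transcription, H3F3B was the brightest. It encodes histone H3.3, the variant laid down outside DNA replication, and had 56012 to 27125 (-1.08) and 31576 to 17281 (-0.91). It was the only one of 9 histone genes in the group, though the list median was -0.51 and all 9 were below 0. H3F3A, which encodes the same protein, had -0.57 and -0.48. CBX1, a heterochromatin protein, had -0.65 and -0.59 at its overlapping probes and was 1 of 30 high mobility group and chromatin regulator genes (3.33%). GINS4 of the replicative helicase had -0.69 and -0.53 and was 1 of 6 DNA replication genes (16.7%). KLF13, a zinc finger transcription factor, had 18342 to 9094 (-1.05) and 7620 to 5201 (-0.59), THRAP1 of the Mediator complex had a mean of -0.68 and FAM60A of the SIN3 deacetylase complex -0.69.

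Protein folding, turnover and transport were each represented by few genes. The counts were 2 of 18 for chaperones (11.1%), 2 of 41 for secretory and endocytic traffic (4.88%) and 1 of 39 for small GTPases (2.56%). They were 1 of 61 for solute carriers (1.64%), 1 of 9 for the respiratory chain (11.1%) and 1 of 8 for the mitochondrial ribosome and import (12.5%). HSP90AA1, an inducible form of the chaperone HSP90, had 9630 to 5633 (-0.81) and 49.4 to 34.6 (-0.55), and DNAJA1, a cochaperone of HSP70, had -0.82 and -0.55. HSPA1A of the same list had a mean of 0.85, over 3 probes from 0.06 to 1.25. UCHL5, a deubiquitinase of the proteasome, had a mean of -0.78 and was 1 of 40 proteasome and ubiquitin genes (2.5%). CACYBP, a partner of ubiquitin ligases, had -0.94 and -0.84 at its overlapping probes. The traffic genes were near the threshold, with means of -0.53 for the lectin LMAN2, -0.53 for SRP72 of the signal recognition particle and -0.54 for the endosomal GTPase RAB5C. Mitochondrial genes besides MRPS21 were SLC25A5, an ADP/ATP carrier (-0.82, -0.61 and -0.57), and NDUFA4 of the respiratory chain (mean -0.62).

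Signalling genes were PRKD3, a kinase activated by diacylglycerol (-1.04, -0.58 and -0.56), RGS14, which curbs G protein signals (mean -0.63), and the calcium-binding CIB1 (-0.59). KIAA1109 had -0.92, -0.88 and -0.60 at 3 probes, CXorf15 a mean of -0.81 and C18orf25 of -0.71. The remaining names were Ensembl transcripts only, ENST00000309884 (-0.88), ENST00000374534 (-0.73) and ENST00000375923 (-0.67). They were in no list, and their probe sequences were not compared with known proteins here. A probe of ENST00000375923 shared 36 bases with a probe of FKSG30 (-0.56), and 1 of ENST00000309884 shared 34 with a probe of LOC388817 (-0.91). In all, 31 of the 52 genes were in at least 1 of 41 gene lists and 21 in none. The lists with no member included immediate early genes (0 of 8), cell cycle (0 of 11), mitosis (0 of 6), p53 targets (0 of 4), apoptosis regulators (0 of 12), photoreceptor and retinal genes (0 of 10) and Ep-CAM signalling (0 of 13). In each of these 1.78% is less than 1 gene. Genes with 1 measured probe could not enter the group. Of all measured probes of these lists, 19.5% (immediate early), 12.1% (cell cycle) and 2.17% (mitosis) were at -0.5 or less. The share was 3.33% for p53 targets, 7.55% for apoptosis regulators, 10.4% for photoreceptor and retinal genes and 6.25% for Ep-CAM signalling. Over all measured probes it was 5.62%. The largest lists with none were zinc finger genes (0 of 72), transcription machinery and coregulators (0 of 28) and mRNA decay and small RNA factors (0 of 21). For the transcription and mRNA decay lists 1.78% is again less than 1 gene. The list medians were -0.04, -0.10 and -0.27, with 43 of 72, 21 of 28 and 19 of 21 genes below 0. DDX6 was counted with the RNA helicases and not with mRNA decay.

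For the 48 genes with 2 probes the median difference between the probes was 0.123, against 0.200 over all names with 2 probes, as follows from asking both to lie below a limit. The genes just inside the limit by their less negative probe were SRP72 (-0.51), RAB5C (-0.51) and HNRPA0 (-0.51), and those just outside were PICALM, C3orf10 and CTCF (all -0.49). A name could also have a low mean and be left out, as HES1 with probes at -2.41 and 0.25.

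**Figure D4:**
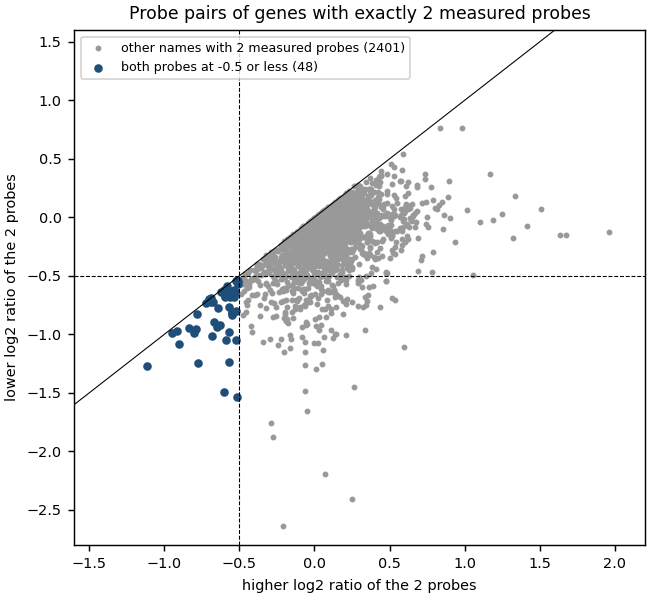
Higher (horizontal) and lower (vertical) log2 ratio of the probes of each name with exactly 2 measured probes. Dark points are the 48 names with both at -0.5 or less, grey points the 2401 others, the diagonal marks equal ratios and dashed lines -0.5. Grey points lie below the dashed horizontal line for 239 names whose probes did not agree.

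The probes of the 52 genes were bright. Their median untreated signal was 1255, against 117 over all probes of names with 2 or more measured probes, and 52.3% were over 1000 against 10.9%. Brightness moved with the ratio over the whole array. The share of measured probes at -0.5 or less was 3.39% at untreated signals of 60 to 300 (median log2 ratio -0.02), 21% at 1000 to 3000 (-0.16) and 30.5% at 3000 to 10000 (-0.34). Of names with a median untreated signal over 1000, 35 of 338 were among the 52 genes (10.4%), and of the others 17 of 2579 (0.659%). With a lowess curve of the log2 ratio on signal subtracted, 22 names met the rule, all of them among the 52, and with quantile normalization 21, all among the 52. Those that met it after the lowess subtraction included ARHGAP15, AMD1, H3F3B, DYNLL1, CFL1, EIF4A1, DDX6, QKI, TPM1 and SYNCRIP, of which EIF4A1 did not meet it with quantile normalization. Those that did not meet it after the lowess subtraction included HNRPA0, HNRPD, EWSR1, EIF4E, EIF5A, PFN1 and SLC25A5. Within names over 1000, where 10.4% met the rule, 4 of 17 splicing genes, 3 of 10 translation factors, 3 of 8 genes of the actin list and 1 of 31 names of the ribosomal list did. The median mean log2 ratio within these was -0.36 for splicing, -0.26 for translation, -0.36 for actin and -0.17 for ribosomal genes. For comparison, the median over all measured probes was -0.16 at signals of 1000 to 3000, -0.34 at 3000 to 10000 and -0.29 over 10000. A median over all 338 names is not given here. The list differences are descriptions, and the part of brightness in them was not tested beyond these values.

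**Figure D5:**
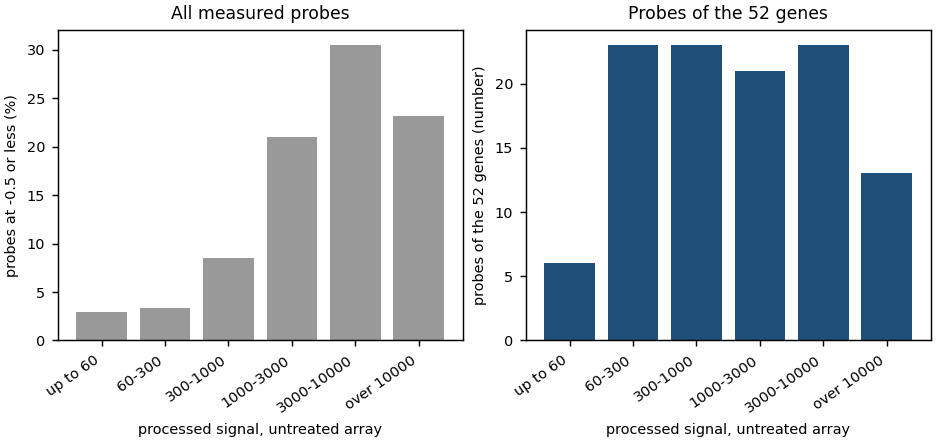
Left, share of all measured probes at a log2 ratio of -0.5 or less (percent) by class of processed signal on the untreated array, and right, number of probes of the 52 genes in the same classes. The share goes from 2.91% in the dimmest class to 30.5% at 3000 to 10000, and 57 of the 109 probes lie over 1000.

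The probes of the 52 genes lay across the surface, with 62.4% in the left columns against 58.6% of all probes of such names. The median log2 ratio of the measured spots around each probe ran from -0.21 to 0.29, and 99 of the 109 probes stayed at -0.5 or less after it was subtracted. By chromosome, against 1.78% of all names, the most genes were on chromosomes 17 (8 of 204, 3.92%), 2 (6 of 178, 3.37%) and 4 (5 of 96, 5.21%), the largest share was on chromosome 18 (2 of 29, 6.9%), and chromosomes 3 (0 of 160), 16 (0 of 133), 20 (0 of 92) and 13 (0 of 36) had none. Probes of other names on the same strand within 2000 bases of the genes were measured in 3 cases and none was at -0.5 or less, the lowest being -0.36 beside ARHGAP15.

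Promoters were read from RefSeq on GRCh38.p14, from 250 bases before to 50 after the start, for 45 of the 52 genes and for 2158 genes of the names with 2 or more measured probes. The CCAAT box (letters CCAAT, both strands) was in 42.2% of the 45 promoters, 36.8% of the 2158 and 35.7% of all 27305. The GC box (GGGCGG) was in 75.6%, 68.8% and 44.6%, and the E-box (CACGTG) in 8.89%, 10.5% and 7.43%. TATAAA was in 4 of the 45 (8.89%, against 6.72% and 12%) and the cAMP response element TGACGTCA in 2, RPL18 and MYL6 (4.44%, against 2.46% and 1.98%). The AP-1 letters TGACTCA were in none of the 45 (3.61% of the 2158 and 4.92% of all), nor were a pair of serum response element forms or the E2F form TTTCGCGC, each in under 1% of the 2158 and of all. TTTGGCGC was in 1, CACYBP. The promoters of EIF4A1, EIF5A and EIF4E are shown as examples, picked for being among the 52 genes and for holding a CCAAT match, which is a common match in all promoters. Capitals mark the matched motifs. They lie at chr17:7572575-7572874 (plus strand) for EIF4A1, chr17:7306749-7307048 (plus strand) for EIF5A and chr4:98929084-98929383 (minus strand) for EIF4E.
EIF4A1 promoter: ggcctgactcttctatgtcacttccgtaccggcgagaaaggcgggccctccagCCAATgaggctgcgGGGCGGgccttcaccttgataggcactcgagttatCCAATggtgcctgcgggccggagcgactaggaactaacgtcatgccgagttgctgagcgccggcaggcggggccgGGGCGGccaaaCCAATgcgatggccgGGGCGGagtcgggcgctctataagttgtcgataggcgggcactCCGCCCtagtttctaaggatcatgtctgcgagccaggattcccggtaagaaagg
EIF5A promoter: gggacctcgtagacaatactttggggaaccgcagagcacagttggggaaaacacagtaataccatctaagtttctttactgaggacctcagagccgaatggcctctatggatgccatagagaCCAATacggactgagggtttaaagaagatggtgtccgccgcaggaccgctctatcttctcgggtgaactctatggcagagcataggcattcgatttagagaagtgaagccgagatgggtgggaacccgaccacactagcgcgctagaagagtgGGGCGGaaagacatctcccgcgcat
EIF4E promoter: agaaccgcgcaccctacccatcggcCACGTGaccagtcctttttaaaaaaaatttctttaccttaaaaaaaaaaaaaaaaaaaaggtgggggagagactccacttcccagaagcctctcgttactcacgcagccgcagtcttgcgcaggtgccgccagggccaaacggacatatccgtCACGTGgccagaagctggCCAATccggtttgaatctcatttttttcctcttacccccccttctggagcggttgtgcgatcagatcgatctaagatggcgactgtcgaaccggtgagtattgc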

How the data were processed

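RNA from 2 cultures of Y79 cells, 1 per group, was measured on Agilent whole-genome arrays with probes designed on hg17. The authors extracted spot intensity values with Feature Extraction, version 9.5.3.1 per the file headers, and scaled arrays to the 50th percentile in GeneSpring. The deposited files hold processed intensity (background-subtracted, unscaled), raw intensity and flags. The deposited series table was the raw median intensity for every probe printed once and served as an alternative. Here, control, outlier and saturated spots were left out, as was a corner (rows 355 to 532, columns 43 to 85). Each array was divided by its median over 43376 transcript spots (41000 probes) and spots of a probe were averaged. The number of arrays limits the precision, and no test was run. Alternatives were other scalings, normexp with an offset of 50 (limma 3.58.1), trend subtraction and other filters. Some gene lists took names by a shared prefix. The 52 genes and all gene lists were chosen with earlier results of these data known. Genes named with full values were the 10 lowest means, those with 3 or more probes, those with every probe at -1 or less, up to 4 per list, those nearest the threshold, the 5 brightest and the reference genes, and the other members are named so that each is accounted for. Gene names are the array's, with newer names by RefSeq accession. Some probe sequences are not reported here.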

Additional observations from a re-analysis of the deposited data

How the results depend on the processing

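The number of genes with every probe at -0.5 or less was 52 and stayed between 42 and 68 under 75th percentile scaling, no scaling, scaling to the probes above background, local surface subtraction, the corner or outlier spots kept, the median over spots, both other filters on dim probes and RefSeq names only. It was 47 with overlapping probes counted once, a setting chosen after seeing the data. It was 21 with quantile normalization, 22 with the lowess curve subtracted, 34 with the values of the series table and 255 with normexp, which moved the median log2 ratio of all measured probes to -0.22 and put 20.2% of them at -0.5 or less. By construction, other limits gave 83 names at -0.4, 23 at -0.6, 1 at -1, 137 when only the mean had to pass and 4 with 3 or more probes asked for. Over the 13 settings of processing, 10 of the 52 genes met the rule in each. The median of the 35 fully described genes was -0.75. It moved by more than the technical spread to -0.60 with quantile normalization and to -1.16 with normexp. Of 455 values of single genes, 353 moved by less than that spread, 101 by more and 1 changed sign, TPM1 with the corner kept (0.092). The cause of these shifts was not tested. No paired analysis was possible because each group had 1 array. Probes that were dim on both arrays, the Ep-CAM probe among them, can show no change at this signal over background.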
